A study of Mus musculus with 45 samples.

Results

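Of the 45 libraries of mouse hepatic stellate cells (HSCs) in the series, 8 come from mice that served as quiescent controls. They were chosen by their labels as the 4 libraries at week 0 of the Western diet and fructose (WD) experiment, here called chow, and the 4 libraries at week 0 of the carbon tetrachloride (CCl4) experiment, here called vehicle. The other libraries are 22 from treated mice (WD for 12, 16 or 24 weeks, CCl4 for 1, 4 or 8 weeks) and 15 from cells activated in vitro (IVT) from d0 to d12. All mice carry the strain label C57BL6/J, are described in the methods as male C57BL/6JBomTac, and have no transgene. Chow mice received standard chow and plain drinking water, and were killed at the same age as the WD mice. Vehicle mice received corn oil by oral gavage 2 times a week for 8 weeks, each time after an overnight fast, and their age is not given in the sources used here. The paper also reports fasting blood glucose of age-matched chow mice during the study, so chow mice were fasted at times too. The groups therefore differ in gavage, corn oil, the schedule of fasting and experiment at once, and no library separates these. In both groups, live HSCs were enriched on a density gradient and sorted by the autofluorescence of their retinoids, so cells that have lost their retinoids are not represented.

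Quiescent HSCs lie between hepatocytes and sinusoidal endothelium and store vitamin A as retinyl esters in lipid droplets. On liver injury or on plating they lose these droplets, become contractile and secrete fibrillar collagen, and this change is called activation. Every injury time course of HSCs is read against a quiescent control. A difference between controls enters the fold changes computed from them where the treated groups do not share it.

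Total exon counts were between 3915765 and 6168113 in the chow libraries and between 2881190 and 4738605 in the vehicle libraries. A count of 3 corresponds to between 0.486 and 1.04 CPM (counts scaled to the size of the library), and this floor covers counting error only, since reads are not independent molecules. The counts do not follow the listed gene identifiers. At the identifier of B2m, a gene that nearly all cells express, all 8 libraries have a count of 0, and receptor, defensin and keratin-associated identifiers have a mean count of 10 or more in 48.9% of 1604 rows against 50.0% of all rows. The identity of the sorted cells could therefore not be checked at marker genes, and each gene is called by its row, that is, its line below the 2 header lines of the count tables. No sequence or genome position can be given for a row.

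HSCs of vehicle mice had 883 rows at a higher level and 305 rows at a lower level than HSCs of chow mice (FDR ≤0.05 and mean log2CPM above 2, edgeR quasi-likelihood test, n = 4 and 4). These are 7.85% and 2.71% of the 11251 rows above that level, and the median log2FC was 0.81 for the rows higher in vehicle and −0.59 for those higher in chow. Over all 14120 rows tested, the median was −0.01. A difference of 2-fold or more was called for 259 rows higher in vehicle (2.30%) and 43 rows higher in chow (0.382%). The test used 1 estimate of spread over the 30 libraries from mice, with a biological coefficient of variation of 0.265. Within the controls the coefficient was smaller, at 0.154 in chow and 0.156 in vehicle, and with only these 8 libraries in the fit 1654 rows were higher in vehicle and 1446 higher in chow. The excess of rows higher in vehicle thus depends on the fit: they are 74.3% of the calls with all 30 libraries, 53.4% with the 8 control libraries and 63.4% with DESeq2 size factors in place of TMM factors. With library totals they are 84.0%. On leaving out 1 control library they are between 73.4% (without chow C) and 84.2% (without vehicle C). In bulk RNA, fewer cells of a type cannot be told apart from less RNA per cell.

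**Figure D1:**
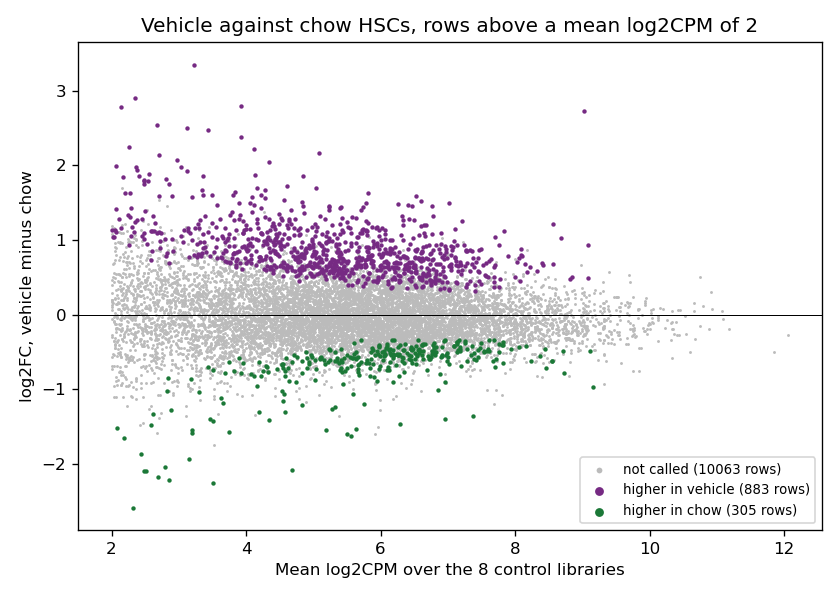
Difference between vehicle and chow HSCs (log2FC, vertical axis) against the mean log2CPM over the 8 control libraries (horizontal axis) for the 11251 rows above a mean log2CPM of 2. The 883 purple points are rows higher in vehicle and the 305 green points rows higher in chow; most lie within 1 log2 unit of the line at 0, and row 20813 stands alone at a mean log2CPM of 9.02 and a log2FC of 2.73.

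The called rows cover the whole range of expression. Between a mean log2CPM of 2 and 4, 161 of 2239 rows were higher in vehicle and 33 higher in chow. Between 4 and 6 these were 429 and 115 of 4542 rows, and between 6 and 8 they were 272 and 145 of 3720. Above 8, 21 and 12 of 750 rows were called. The median level was 5.34 for rows higher in vehicle and 6.06 for rows higher in chow, against 5.54 for all rows. Rows that differed by 2-fold or more had lower levels, with medians of 4.31 and 3.65. The 4 chow and 4 vehicle values did not overlap in 861 of the 883 and in 286 of the 305 rows. Among all rows, 15.9% had every vehicle library above every chow library and 14.9% had the reverse.

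Rows higher in vehicle reached larger differences than rows higher in chow. Row 1224 had the highest log2FC of the rows whose groups do not overlap, with 3.35 ± 0.40 (SE, FDR 9.01e-06). Its level was 1.33, 1.48, 4.85 and 4.18 CPM in chow A to D and 26.9, 24.5, 34.4 and 31.9 CPM in vehicle A to D. The lowest vehicle library thus lay well above the highest chow library. Row 20813 was both among the most changed and the most abundant of the 2-fold rows. It had 140.1, 186, 288 and 209.6 CPM in chow and 1175, 1164, 1618 and 1514 CPM in vehicle, a log2FC of 2.73 ± 0.39 (SE, FDR 4.76e-05). At such counts, between 739 and 7610 reads per library, counting error is small against the difference.

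The remaining rows with the highest log2FC were of low level in chow. Row 21883 had between 4.37 and 6.47 CPM in chow and between 26.7 and 45.6 CPM in vehicle (log2FC 2.80 ± 0.42 SE, FDR 0.000104). Row 13530 had between 3.13 and 5.32 CPM in chow and between 22.8 and 26.0 CPM in vehicle (log2FC 2.48 ± 0.43 SE, FDR 0.000439). In row 21883, vehicle B was the lowest vehicle library, and the other vehicle libraries had 40.7 CPM or more. Rows 1828, 7596, 17225 and 6797 had chow means of 1.75, 1.57, 2.43 and 3.56 CPM and vehicle means of 13.2, 11.1, 14.2 and 20.0 CPM, with log2FC between 2.49 and 2.91. In row 7596 the vehicle libraries ranged from 7.04 to 19.6 CPM, and in row 6797 from 10.0 to 27.4 CPM. Row 1828 had 2 counts in chow A, under the floor of 3 counts, and row 7596 had 3 counts in chow C, at the floor.

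Above a mean log2CPM of 8, 3 of 750 rows were higher in vehicle by 2-fold or more and 0 higher in chow. The most abundant of the rows changed at least 2-fold, beside row 20813, were near that limit. Row 7458 had 286, 266, 319.8 and 277 CPM in chow and 537, 594, 554 and 651 CPM in vehicle, with a log2FC of 1.02 ± 0.22 (SE, FDR 0.00292). Row 2613 had 231, 226, 285 and 258 CPM in chow and 509, 528, 593 and 683 CPM in vehicle, with a log2FC of 1.21 ± 0.16 (SE, FDR 2.77e-05). Neither row had a chow library near the vehicle range. Row 9450 had 144, 130.3, 206 and 149 CPM in chow and 295, 306, 300.3 and 461 CPM in vehicle, with a log2FC of 1.11 ± 0.30 (SE, FDR 0.016). Vehicle D stood above the other vehicle libraries in this row, and without it the log2FC was 0.94 and the FDR 0.077. Row 9450 lost the call in 3 of the 8 exclusions, so not with vehicle D alone.

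The named rows higher in chow differed less and spread more within the groups. Row 7943 had the lowest log2FC of the rows without overlap, with 21.8, 47.5, 22.9 and 16.7 CPM in chow and 8.32, 9.28, 2.13 and 2.57 CPM in vehicle (log2FC −2.26 ± 0.50 SE, FDR 0.00424). Row 18711 had 13.5, 17.8, 8.90 and 7.59 CPM in chow and 2.77, 4.52, 2.76 and 0.73 CPM in vehicle (log2FC −2.09 ± 0.51 SE, FDR 0.00853). In both rows the ranges are separate but wide, and chow B is highest. Row 18711 had 2 counts in vehicle D, under the floor of 3 counts. Row 15819 had between 14.2 and 21.9 CPM in chow and between 3.67 and 5.74 CPM in vehicle (log2FC −1.94 ± 0.39 SE, FDR 0.00211). Row 7711, an abundant row, had between 152 and 193 CPM in chow and between 71.5 and 92.9 CPM in vehicle (log2FC −1.01 ± 0.20 SE, FDR 0.00131).

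Chow B was the highest chow library in all 12 named rows higher in chow, and vehicle D was the lowest vehicle library in 10 of them. Over the 43 rows that were higher in chow by 2-fold or more, each of these libraries held that place in 32 rows (74.4%). Over the 883 rows higher in vehicle, vehicle D was highest in 482 (54.6%). The number of rows higher in chow fell on leaving out any of the 8 libraries: from 305 to 153, 125, 281 and 192 without chow A to D and to 177, 244, 130 and 123 without vehicle A to D. Without vehicle C, 122 of the 305 calls were kept, against 123 without chow B and 110 without vehicle D. The number higher in vehicle was between 601 (without chow B) and 827 (without vehicle B). Rows 4074, 673, 14316, 15205, 16180 and 15417 each passed the FDR threshold with all libraries (0.017 to 0.043) and lost it in 3 (row 4074) to 7 (row 16180) of the 8 exclusions, those of chow B and of vehicle D among them. Their log2FC changed less than their calls did, for example from −1.36 to between −1.63 and −1.16 in row 16180 and from −1.65 to between −1.83 and −1.51 in row 4074. Vehicle D has the smallest total count of the 8 libraries and chow B the largest. Every library from mice was also thinned to the smallest total of the 30, about 2318300 counts. Then 220 rows were higher in chow, 191 of them among the 305, and 730 were higher in vehicle, 695 of them among the 883.

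**Figure D2:**
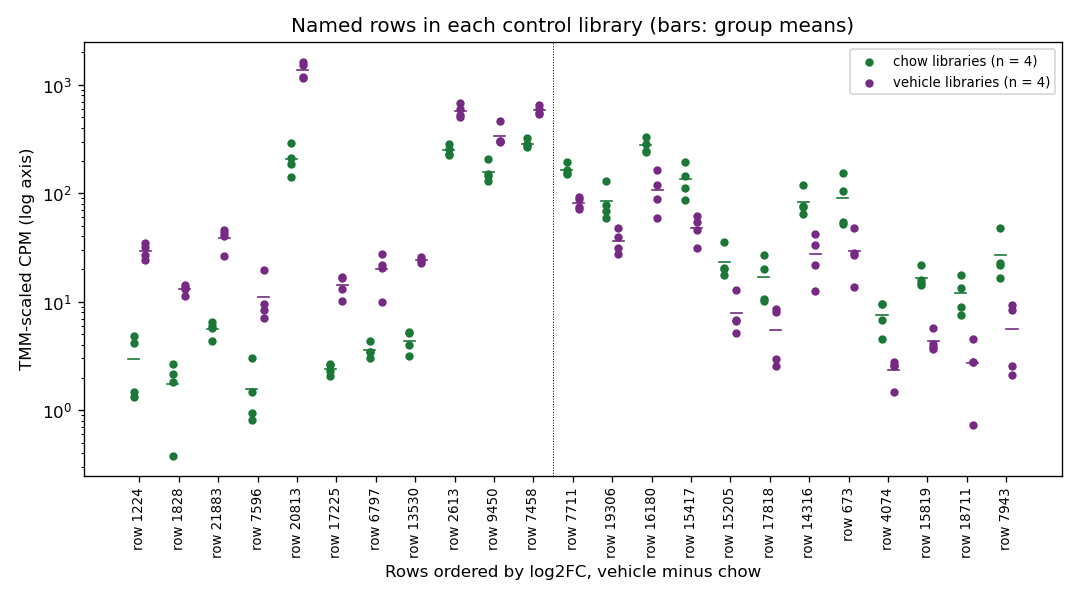
TMM-scaled CPM (log axis) of the 23 named rows in each chow (green) and vehicle (purple) library, ordered by log2FC, with bars at the group means. The groups do not overlap in any row, by the rule that chose them; the gap is widest at row 1224, with 2.96 CPM in chow and 29.4 CPM in vehicle on average, and narrow at rows such as 7711, with 165 and 81.7 CPM.

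A few rows were counted in only 1 of the control groups. A count of 0 in all 4 chow libraries with 1 or more in all 4 vehicle libraries occurred in 42 rows, and the reverse in 8. Most of these counts were small: 8 of the 42 and 2 of the 8 reached a sum of 20 over their group. The highest sum was in row 12870, with 16, 22, 18 and 111 counts in vehicle A to D. Against the floor of 3 counts over the chow group, its vehicle level of 10.2 CPM is at least 71.2-fold higher. Vehicle D holds 111 of these 167 counts, and over the other 3 vehicle libraries the level is 4.14 CPM and at least 29.0-fold higher. Row 12770 had 13, 12, 4 and 23 counts in vehicle, at least 22.2-fold higher than the same floor. These 2 rows were chosen after their values were seen, because of their pattern in the treated mice.

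These 2 rows were counted in some groups of the CCl4 experiment and hardly in another. Row 12770 had between 4 and 21 counts in each CCl4 4w library and between 12 and 19 in each CCl4 8w library. It had 0 counts in all 3 CCl4 1w libraries, and a single count in the 16 libraries of the WD table and the 15 IVT libraries together. Row 12870 had between 28 and 99 counts at CCl4 4w and between 26 and 44 at CCl4 8w, but 0, 0 and 1 counts at CCl4 1w and at most 4 in any WD library. Among the mice, both rows were thus present in vehicle, CCl4 4w and CCl4 8w, and nearly absent from chow, CCl4 1w and WD. Most rows of this kind did not have that pattern. Of the 10 rows with a sum of 20 or more in 1 control group and 0 in the other, 6 had between 4 and 227 counts over CCl4 1w and between 30 and 174 over the WD groups, and 4 had at most 1 and at most 11. No row was counted in all 11 libraries of vehicle, CCl4 4w and CCl4 8w and at 0 in all 19 of chow, WD and CCl4 1w (0 rows), nor the reverse (0 rows).

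The library numbers that the sample descriptions carry fall into the same sets. They form 3 series: series 1 holds vehicle, CCl4 4w and CCl4 8w (11 libraries), series 2 holds chow, all WD groups and CCl4 1w (19 libraries), and series 3 holds IVT (15 libraries). The labels do not say what a number stands for, such as a preparation, a cohort or a sequencing run. Chow and vehicle each lie within 1 series, so no comparison of the 2 controls within a series is possible, and condition, experiment and number series cannot be told apart for them. The 22 treated libraries are in neither control group, but they entered the filter, the scaling and the estimate of spread with which the rows were called. They fall into both series within the CCl4 experiment and were compared next.

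In treated mice, the 883 rows higher in vehicle divided by number series. Their mean log2(CPM + 1) was 5.71 at CCl4 4w and 5.76 at CCl4 8w, against 5.11 at CCl4 1w and 5.15, 5.13 and 5.19 after 12, 16 and 24 weeks of WD. Per library, the range was 5.61 to 5.95 in the 7 treated libraries of series 1 and 4.98 to 5.50 in the 15 of series 2, with no overlap. The controls themselves, whose values are fixed by the choice of rows, stood at 5.71 in vehicle and 4.91 in chow. Cultured cells had between 5.16 and 5.37, in value near the series 2 mice. The mean over all rows above the expression threshold differed too, at 5.34 in culture, 5.57 in treated libraries of series 2 and 5.42 in those of series 1. Levels in culture and in mice are therefore not on the same base.

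The 305 rows higher in chow showed the reverse division. Their mean log2(CPM + 1) was 5.77 at CCl4 4w and 5.79 at CCl4 8w, against 6.21 at CCl4 1w and between 6.20 and 6.29 in the WD groups. The 7 treated libraries of series 1 ranged from 5.65 to 5.89 and the 15 of series 2 from 6.09 to 6.41, again with no overlap. In culture the level lay between 5.52 and 5.81, nearer to series 1 than to series 2.

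**Figure D3:**
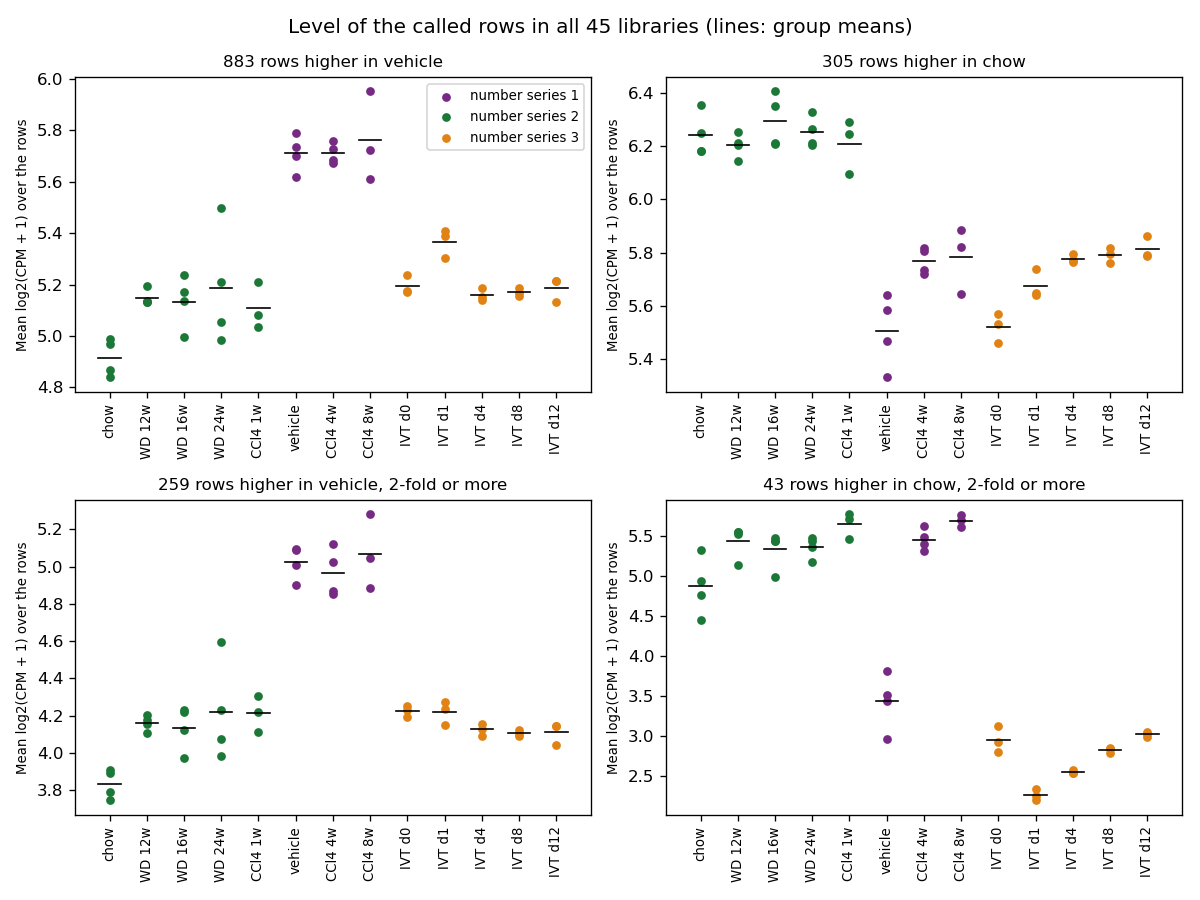
Mean log2(CPM + 1) of the called rows in each of the 45 libraries, by group, coloured by the series of library numbers, with lines at the group means. In the top panels the treated libraries of series 1 (purple; CCl4 4w and 8w) lie with vehicle or near it, and those of series 2 (green; WD and CCl4 1w) lie nearer to chow, except that WD 24w D lies at 5.50 for the rows higher in vehicle, nearer to the lowest vehicle library (5.62) than to the highest chow library (4.99). In the bottom right panel the mean of the 43 rows higher in chow by 2-fold or more is instead high in all treated groups, between 5.34 and 5.69, and low in culture.

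The same rows were read in contrasts of treated mice that share no library with the controls. Between CCl4 8w and WD 24w, the rows higher in vehicle had a median log2FC of 0.64, and 565 of them (64.0%) were called higher with CCl4, against 14.1% of the 11251 rows, which are the background for all contrasts of treated mice. Between CCl4 4w and WD 16w the median was 0.67, with 596 (67.5%) called higher against 21.0% of all rows. Between CCl4 1w and WD 12w, where both groups belong to series 2, the median was 0.01 and 66 rows (7.47%) were called higher against 7.24% of all rows. The difference between controls was thus met again among treated mice at the later time points and was near the background at the earliest. With the rows called from the 8 control libraries alone, the median in CCl4 8w minus WD 24w was 0.51 for rows higher in vehicle and −0.44 for rows higher in chow.

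Rows higher in chow went the other way at the later time points. Their median was −0.48 between CCl4 8w and WD 24w, against −0.04 over all rows. It was −0.53 between CCl4 4w and WD 16w, with 182 (59.7%) called lower against 23.5%. Between CCl4 1w and WD 12w it was 0.04, and 30 rows (9.84%) were called lower against 13.3% of all rows, while 36 (11.8%) were called higher against 7.24%, the direction opposite to that between controls.

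Within the CCl4 experiment, CCl4 8w and CCl4 1w are in different number series. There the 883 rows had a median log2FC of 0.72, and 587 of them (66.5%) were higher at 8 weeks, against 19.7% of all rows. For CCl4 4w minus CCl4 1w the median was 0.65, with 571 (64.7%) higher against 17.5% of all rows. The 305 rows had medians of −0.49 and −0.48 in these contrasts, with 164 (53.8%) and 160 (52.5%) called lower against 18.6% and 19.5% of all rows. In the WD experiment, where all groups are in series 2, the medians between 24 and 12 weeks were 0.01 and 0.02. Since CCl4 1w differs from the later groups in both duration and number series, these cannot be told apart here. Across the 11251 rows, the vehicle minus chow log2FC had a Pearson r of 0.45 with CCl4 8w minus CCl4 1w, 0.34 with CCl4 8w minus WD 24w and −0.03 with CCl4 1w minus WD 12w; rows are not independent replicates, and the contrasts share no library but were scaled together and share 1 estimate of spread.

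**Figure D4:**
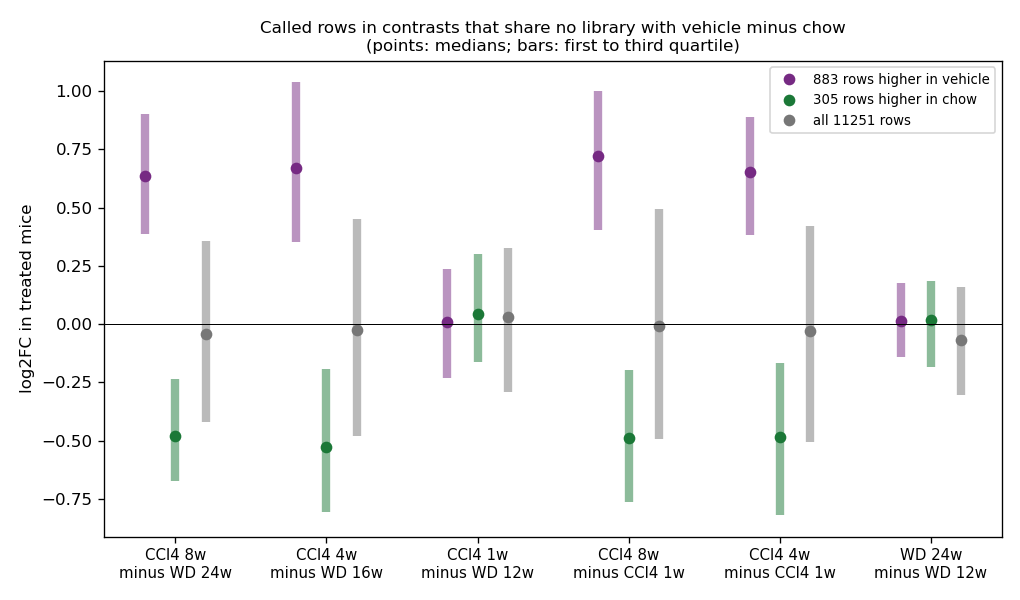
log2FC of the 883 rows higher in vehicle (purple), the 305 rows higher in chow (green) and all 11251 rows (grey) in contrasts of treated mice, with points at the medians and bars from the lower to the upper quartile. The lists lie on opposite sides of 0 where the groups belong to different number series, for example at 0.64 and −0.48 in CCl4 8w minus WD 24w, and close to 0 in CCl4 1w minus WD 12w and WD 24w minus WD 12w, where both groups belong to series 2.

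Single abundant rows show this in the group means. Row 20813 had group means of 455, 307 and 409 CPM after 12, 16 and 24 weeks of WD and 352 CPM at CCl4 1w, but 1243 CPM at CCl4 4w and 1083 CPM at CCl4 8w. Its range in CCl4 8w, from 1047.5 to 1149 CPM, lay above all WD libraries, the highest of which had 882 CPM, while the lowest CCl4 4w library had 867 CPM. It was 1.64 higher (log2FC, FDR 0.00473) at CCl4 8w than at CCl4 1w. Row 2613 had between 290.5 and 344 CPM on average in the WD groups and 291 CPM at CCl4 1w, against 512 and 576 CPM at CCl4 4w and 8w (CCl4 8w minus CCl4 1w log2FC 1.00, FDR 0.000344). Row 9450 had between 160.0 and 178 CPM in the WD groups and 177 CPM at CCl4 1w, against 319 and 374 CPM at the later CCl4 times, but its lowest CCl4 8w library (210.2 CPM) lay below the highest WD 12w (266 CPM) and CCl4 1w (224 CPM) libraries.

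Other named rows did not follow the number series. Row 7943, with the lowest vehicle minus chow log2FC, had 152, 95.9 and 98.4 CPM after 12, 16 and 24 weeks of WD and between 3.17 and 6.92 CPM in all 3 CCl4 groups. It was lower with CCl4 in each contrast with WD, with a log2FC of −4.55 at the earliest time (FDR 6.53e-07) and −3.72 at the latest (FDR 1.60e-05). This row separated the experiments at every time, CCl4 1w included. Row 17225 separated them the other way, with between 1.45 and 1.82 CPM in the WD groups and 7.58, 9.70 and 9.83 CPM after 1, 4 and 8 weeks of CCl4. Row 21883, higher in vehicle among the controls, had group means between 0.36 and 0.66 CPM after WD and between 0.50 and 3.03 CPM after CCl4. Its mean was thus low in all treated groups. The highest CCl4 1w library, at 6.22 CPM, lay within the chow range of 4.43 to 6.48 CPM.

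The control difference was also compared with that of the late treated groups row by row. The difference between CCl4 8w and WD 24w departed from that between vehicle and chow in 1065 of 11821 rows (9.01%, FDR ≤0.05). These are the rows with a mean log2CPM above 2 over the groups of this contrast. The control difference that chose the called and named rows is subtracted in this contrast, which favours departures opposite to it, so nothing is read from how many of these rows departed, and single rows are given as levels. Row 18711 reached 32.1 CPM at CCl4 8w and 6.77 CPM at WD 24w, and row 17818 reached 259 and 63.6 CPM; both were higher in chow among the controls. Row 15417 had 560 CPM at CCl4 1w, 195 CPM at CCl4 8w and 85.3 CPM at WD 24w, where vehicle had been the lower control.

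Rows higher in chow by 2-fold or more were a set apart. Their mean log2(CPM + 1) was 4.76, 5.33, 4.95 and 4.45 in chow A to D and 3.52, 3.81, 3.44 and 2.96 in vehicle A to D. In treated mice it lay between 5.34 and 5.69 in every group, with libraries of series 1 (5.31 to 5.77) and series 2 (4.99 to 5.77) overlapping. In culture it was 2.95 at d0, 2.25 at d1 and 3.02 at d12. The mean over these rows was thus higher in every treated group than in either control, and lower in culture at these times than in the treated mice. A minority of the rows carried this against chow: for WD 24w minus chow the median log2FC was −0.70, with 17 of the 43 rows above 0, while for CCl4 8w minus vehicle it was 2.05, with 36 of 43 above 0. These contrasts share the control libraries that chose the rows, so they are given side by side only. Their median log2FC in CCl4 8w minus WD 24w was 0.14, of the sign opposite to the −0.48 of all 305 rows.

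Whether the difference between controls resembles activation was first asked with the culture experiment, which shares no library with either. An axis was drawn from the mean of d0 to that of d12, and each library was placed on it in percent of the way. Chow lay at 22.7% ± 1.58 (SD, n = 4) and vehicle at 21.0% ± 1.13 (SD, n = 4), a difference of −1.72 percentage points (two-sided exact permutation p = 0.114, adjusted over 6 library values 0.286). On the axis from d0 to d1, both groups lay at 21.3% (exact permutation p = 1.0). WD groups stood between 35.4% and 42.7% on the first axis, CCl4 1w at 34.6% and the later CCl4 groups at 50.0% (4 weeks) and 49.1% (8 weeks). The difference between controls was thus small beside that between either control and any treated group, and vehicle did not lie further along the axis than chow.

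**Figure D5:**
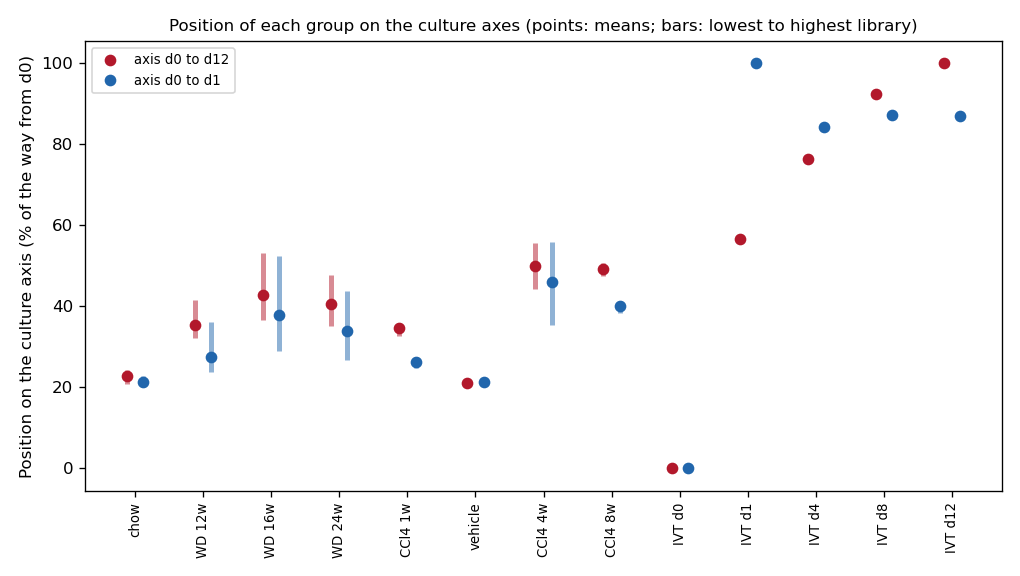
Position of each group on the axes from IVT d0 to d12 (red) and from d0 to d1 (blue), in percent of the way from d0, with points at group means and bars from the lowest to the highest library. Chow and vehicle lie side by side, at 22.7% and 21.0% on the d12 axis, below the treated groups, whose means lie between 34.6% and 50.0%.

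Rows that changed in culture were then read in the controls. Of the 776 rows that rose by 4-fold or more from d0 to d12, 737 were tested between controls, with a median vehicle minus chow log2FC of −0.17 against −0.01 for all rows tested. Above the expression threshold, 20 of 451 (4.43%) were higher in vehicle and 17 (3.77%) higher in chow, against 7.85% and 2.71% of all rows. The 929 rows that fell by 4-fold or more had a median of −0.05 over the 906 tested, and 46 of 834 (5.52%) were higher in vehicle and 12 (1.44%) higher in chow. Rows that rose and rows that fell in culture thus had medians of the same sign between controls, both close to 0. Rows that rose by d1 had a median of −0.14 and rows that fell by d1 a median of −0.07.

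By d12 in culture, rows higher in vehicle rose about as often as they fell, and rows higher in chow rose more often than all rows did. At d1, 43.9% of the rows higher in vehicle rose and 30.2% fell, against 39.2% and 37.0% of all rows. At d4, 34.7% of them rose and 40.1% fell, against 39.7% and 37.5% of all rows. From d0 to d12, 332 of 881 rows higher in vehicle rose (37.7%) and 334 fell (37.9%), with a median log2FC of −0.01, where 39.9% of all rows rose and 38.6% fell. Of 294 rows higher in chow, 157 rose (53.4%) and 87 fell (29.6%), with a median of 0.31. The share of these rows that rose was 49.3% at d1, 52.4% at d4 and 53.1% at d8, against 39.2%, 39.7% and 40.1% of all rows. Among the named rows higher in vehicle, row 1224 had 217 CPM at d0 and 31.9 CPM at d12, row 17225 had 279 and 2.98 CPM, and row 21883 had 55.3 CPM at d0 and was at 0 counts from d4 on. Named rows higher in chow went both ways from d0 to d12. Row 7943 had 3.47 CPM at d0 and 59.9 CPM at d12, and rows 17818, 15819 and 19306 also rose. Row 16180 fell from 55.3 to 7.73 CPM, and rows 4074, 14316, 15417, 673, 15205 and 7711 also fell. Row 18711 was not tested in culture. Chow and vehicle each differ from d0 in 2 hours of suspension and in number series, so levels at d0 are given only beside the others.

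By whole profiles, the controls were close. The distance between the mean profiles of chow and vehicle in log2(CPM + 1) was 53.5, while that from either to a treated group was 92.1 or more. The nearest treated group was CCl4 1w for both, at 92.1 from chow and 104 from vehicle. Between single libraries, distances were 46.9 to 62.3 within chow, 46.5 to 68.3 within vehicle and 59.0 to 93.8 between them, so the ranges touch. The first principal component of the 8 libraries held 39.2% of their variance and separated the groups, with chow between −36.6 and −18.2 and vehicle between 12.8 and 44.3. Chow B and vehicle D lay at its ends.

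Of the other values per library, 1 had groups that did not overlap. After thinning to 2881190 counts, 14351 ± 75.3 (SD, n = 4) rows were detected in chow and 14806 ± 150.2 (SD, n = 4) in vehicle. This gave an exact permutation p of 0.029, the smallest that 4 against 4 libraries allow, and an adjusted p of 0.171 over the 6 values. The median log2(CPM + 1) was 5.01 in chow and 5.04 in vehicle (exact permutation p = 0.257), and the 10 highest rows held 2.46% and 2.32% of the counts (exact permutation p = 0.286). Total counts were lower in vehicle on average, without a difference beyond the spread (exact permutation p = 0.143).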

How the data were processed

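Total exon counts of 30 libraries from mice and 15 from culture were taken from 3 tables. The authors deposited raw counts per gene without adjustment, made with HOMER on reads of both strands, at most 3 per position and 1 transcript per gene, after alignment to mm10 with STAR (submitters' processing notes and file headers). Versions are not given in the sources used here. The command in all 3 headers lists the library numbers of the culture experiment, so columns were assigned by their titles. All columns were used. Rows were joined by line, with the same 23999 identifiers in each table. Of these, 23659 matched a RefSeq symbol, but the counts did not follow the identifiers, so planned marker lists were not used.

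Counts were tested with edgeR 4.0.16 (R 4.3.3) by the quasi-likelihood test, with TMM, filterByExpr (14120 rows) and Benjamini-Hochberg adjustment, with 8 groups of 30 libraries in 1 fit. A row was called where FDR was ≤0.05 and its log2CPM, averaged over the libraries compared, exceeded 2. The SE is the absolute log2FC over the square root of F. The culture fit used 15 libraries. Levels across all 45 libraries use TMM over these. Named rows are the 8 highest and 8 lowest log2FC among called rows without overlap, and the 4 most abundant in each direction among those changed at least 2-fold. Axes, distances and list levels use log2(CPM + 1). Library values were compared by exact permutation tests, two-sided. On simulated counts for this contrast (14169 rows tested), 100% of 100 rows changed 4-fold and 50% of 100 changed 2-fold were recovered, and 4 of 154 calls were unchanged rows. These counts had the same dispersion in every row and library, near that of the fit of 30 libraries, and only rows above 4 CPM were changed. The shares therefore need not hold for the real rows, whose spread differs between rows and libraries. DESeq2 1.42.0, other scalings, filters, thresholds, thinning, the 8 libraries alone, the replicate block and exclusions were alternatives. Libraries from mice were taken as different mice, and p-values measure the spread between these samples. For the culture libraries, the paper names technical triplicates in 1 place and biological replicates in another. Their FDR values may therefore measure the spread between wells. Rows and lists were chosen with earlier results of these data known, and the arrangement by library numbers after the data were seen.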

Additional observations from a re-analysis of the deposited data

Results flagged for a closer look

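Within a control group, 1 library stood apart from the other 3 in 3 of 58 sets of 4 values tested (23 named rows and 6 library values in 2 groups), where chance gives about 1 in 20. The gap to the nearest library, as a share of the whole range, was 0.937 for row 9450 in vehicle (vehicle D high), 0.849 for row 15205 in chow (chow B high) and 0.842 for row 4074 in vehicle (vehicle D low). The last 2 rows are called higher in chow, and both lose the call without the library that stands apart, as they also do without others (row 4074 in 3 and row 15205 in 4 of 8 exclusions). The log2FC without that library was −1.29 in row 15205 against −1.57 with all libraries, and −1.51 in row 4074 against −1.65.

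The difference between experiments was not the same among late treated mice as among controls in 1065 rows (edgeR quasi-likelihood test of the difference of differences, FDR ≤0.05): it was higher among treated mice in 378 and lower in 687. For 8 of the 23 named rows this test passed. The difference of log2FC, (CCl4 8w minus WD 24w) minus (vehicle minus chow), was 4.42 for row 18711, 3.72 for row 17818, 3.10 for row 15819, 2.85 for row 16180, 2.73 for row 15417, 2.63 for row 4074, 1.97 for row 19306 and 0.97 for row 7711. All 8 rows were named for a large difference in favour of chow, which this contrast subtracts, so departures of this sign are favoured by the choice and nothing is read from their number.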

How the results depend on the processing

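The counts of called rows depended on the settings. The 883 rows higher in vehicle became 529 with no filter on low counts, 527 above a mean log2CPM of 5, 259 at 2-fold or more and 1654 with only the 8 control libraries. The 305 rows higher in chow became 189 with library totals, 678 with DESeq2, 43 at 2-fold or more and 1446 with the 8 libraries. Leaving out each library in turn gave 601 to 827 and 123 to 281 rows. Without the filter, CCl4 8w minus WD 24w had 1207 and CCl4 1w minus WD 12w 648 rows higher, against 1821 and 975; with library totals the latter had 1554. The position on the axis to d1 changed sign with library totals (0.385 percentage points) and lay between −0.437 and 0.484 over the exclusions, within the spread of the libraries. Over 299 alternatives of the 23 named log2FC values, 266 kept direction and call, and 33 kept the direction but lost the call, all on leaving out a library. The 33 belong to rows 4074, 673, 14316, 15205, 9450, 16180 and 15417. Named rows were chosen as called and without overlap between the groups, which favours a kept direction, so nothing is read from it.

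For the called rows in treated mice, alternatives were chosen after the data were seen. With only rows changed 2-fold or more, the medians for rows higher in vehicle rose to 0.94 (CCl4 8w minus WD 24w), 1.0 (CCl4 4w minus WD 16w), 0.13 (CCl4 1w minus WD 12w), 1.0 (CCl4 8w minus CCl4 1w) and 0.84 (CCl4 4w minus CCl4 1w). For rows higher in chow they turned to 0.14 and 0.19 in the first 2, and were −0.28 and −0.30 in the last 2 and −0.51 in WD 24w minus WD 12w. In the same order of contrasts, library totals gave 0.81, 0.11 and 0.74 for rows higher in vehicle from CCl4 4w minus WD 16w on (CCl4 8w minus CCl4 1w moved less than its spread), and −0.33, −0.34, 0.13 and −0.40 for rows higher in chow in CCl4 8w minus WD 24w, CCl4 4w minus WD 16w, CCl4 1w minus WD 12w and CCl4 4w minus CCl4 1w. With rows called from the 8 libraries alone, rows higher in vehicle had 0.53 in both CCl4 4w contrasts, and rows higher in chow −0.41 (CCl4 4w minus WD 16w), 0.15 (CCl4 1w minus WD 12w), −0.60, −0.58 (CCl4 8w and 4w minus CCl4 1w) and −0.13 (WD 24w minus WD 12w). Over the exclusions, CCl4 4w minus WD 16w gave 0.65 to 0.83 and −0.59 to −0.44, CCl4 4w minus CCl4 1w −0.60 to −0.43 and CCl4 1w minus WD 12w −0.041 to 0.11 for rows higher in chow. The cause of these moves was not tested.

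Replicate letters are shared between the groups, and the libraries were not paired by them. Deviations from the group means correlated between 0.0079 and 0.48 for equal letters (mean 0.25) and between −0.43 and 0.42 for other letters (mean −0.08). Not every library correlated best with its own letter, but so few correlations cannot exclude a pairing. With the letter as a replicate block, 886 rows were higher in vehicle and 296 higher in chow, including 845 of the 883 and 268 of the 305; with the 8 libraries alone the block gave 1645 and 1446.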
